A study of Mus musculus with 7 samples.

Results

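The ribosome-depleted RNA-seq library of E14 mouse ESCs was 1 of the 7 samples of the study and its 1 RNA-seq library. The other samples were CIRS-seq libraries, which count reverse transcription (RT) stops on RNA from lysates that were treated with DMS or CMCT, reagents that modify unpaired bases, or left non-treated (NT) to record stops that occur without them. E14 is a male ESC line of strain 129/Ola, and the cells carried no label of a treatment or an added allele. They were grown on gelatin in medium with serum and LIF, a cytokine that holds mouse ESCs in the pluripotent state, and were lysed on the plate in TRIzol. Ribosomal RNA was removed with the Ribo-Zero Gold kit, and the library was made with a TruSeq RNA kit, which does not keep the strand.

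The members described here were the alignments of this library on mm9, 31857551 in all, each of 50 bases. An alignment was counted for a gene when its midpoint lay in exons of exactly 1 gene of the GENCODE vM1 annotation, and 22286799 alignments met this rule. There was no replicate and no second condition, so values are a description without a test, and the intervals given (95% Wilson for shares, exact Poisson for levels) cover counting error alone. The level of a gene was its number of counted alignments per kb of exon that belongs to no other gene, scaled to a total of 1000000 alignments counted for genes. A gene was called expressed at a level of at least 1, which equals 22.3 alignments per kb.

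Depletion of ribosomal RNA, in contrast to selection of polyadenylated RNA, keeps transcripts without a poly(A) tail. These include the RNAs of RNA polymerase III, such as 7SL, the RNA scaffold of the signal recognition particle that brings nascent secreted proteins to the endoplasmic reticulum, and 7SK, which holds the elongation factor P-TEFb inactive. They also include the snRNAs of the spliceosome, the mRNAs of replication-dependent histones, which end in a stem-loop, and unspliced precursors in the nucleus. In mouse ESCs, Pou5f1 (also called Oct4), Sox2 and Nanog form the core of the transcription factor circuit of pluripotency.

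The first property of the data that bears on any level is that a line of the file was not always 1 read. The alignments carried 22668730 read names, of which 18630971 occurred once. The other 4037759 names (17.8%) had up to 10 alignments each and made up 41.5% of the alignments. The main shares are therefore given over the alignments, with each read split equally over its alignments, and over reads with 1 alignment. Levels are over all alignments unless stated. The level over reads with 1 alignment was scaled to their own total of 11716716, so that it is 1.90 times as high for a gene whose alignments all belong to such reads. It is given beside lists and genes whose count or order it changed, but not beside every such gene. Over the whole library 49.4% of the counted alignments were on the strand of the gene. Among 9038 protein-coding genes the median of this share was 50.8%, with 45.3% at the 5th and 56.4% at the 95th percentile. Some short RNAs departed from this.

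By its midpoint, 70.0% (69.9% to 70.0%) of the alignments lay in exons of exactly 1 gene. A further 1.78% lay in exons of several genes, 18.3% lay in introns and 9.94% lay outside genes. The mitochondrial genome held 11.2% of the alignments. Splitting the reads lowered the exonic share to 65.7% and raised the intronic share to 23.8% and the mitochondrial share to 15.0%. Over reads with 1 alignment the exonic, intronic and mitochondrial shares were 62.9%, 27.8% and 17.4%. With repeated positions counted once they were 46.1%, 40.5% and 0.156%. Reads with several alignments were thus found more often in exons, and the intronic share was higher where they had less weight.

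**Figure D1:**
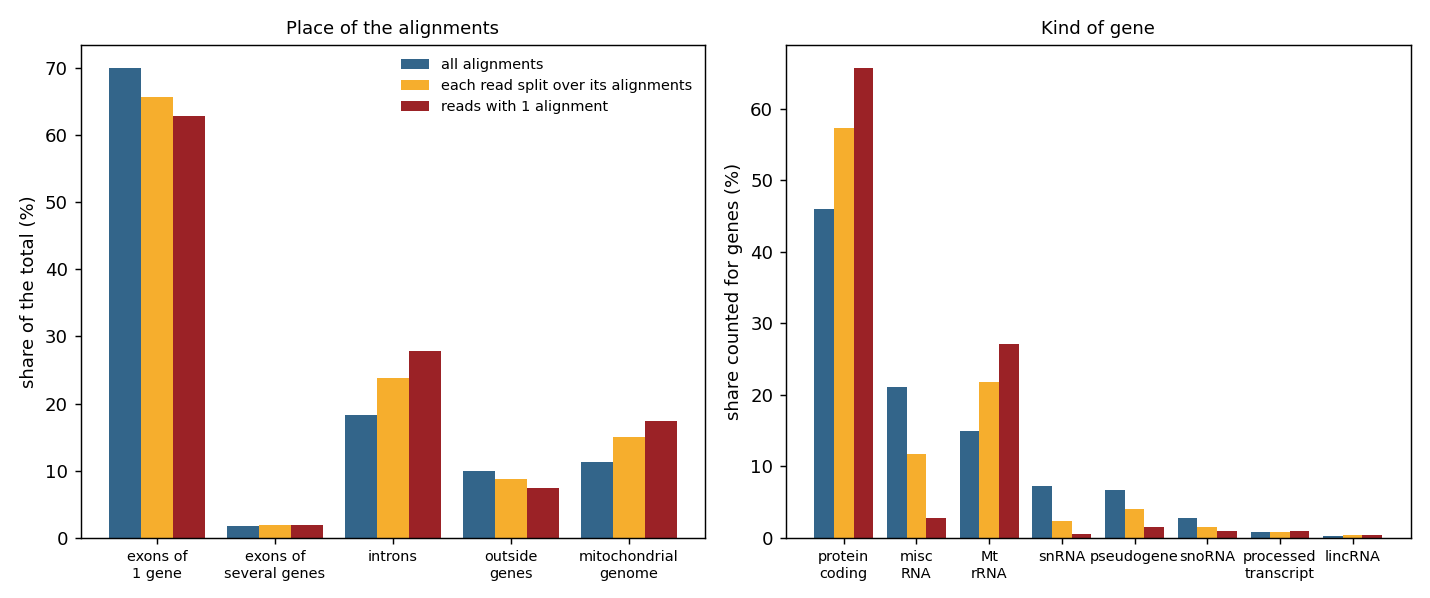
Share (%) of the library by place in the genome (left, of all alignments or reads) and by kind of gene (right, of those counted for genes), with bars for all alignments, for reads split over their alignments, and for reads with 1 alignment. The mitochondrial genome is also part of the other 4 places. The share of protein_coding rises from 46.0% to 57.3% and 65.7% across the 3 ways of counting, and that of misc_RNA falls from 21.2% to 11.8% and 2.82%.

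The levels of marker genes matched the label of the cells. Pou5f1 had a level of 107 (104 to 110), Lin28a, an RNA-binding protein that blocks the maturation of let-7 microRNAs, had 23.3 (22.2 to 24.4), and Uhrf1, which recruits the maintenance DNA methyltransferase to newly replicated DNA, had 41.6 (40.3 to 42.9). Pou5f1 (ENSMUSG00000024406) lies on chromosome 17 from 35642982 to 35647721, and 70.5% of its 5385 alignments belonged to reads with 1 alignment. Of 28 genes of naive and core pluripotency, 27 were expressed, with a median level of 18.5, while 9770 of all 22367 nuclear protein-coding genes (43.7%) were expressed and their median level was 0.518. Over reads with 1 alignment, 27 of the 28 (median 27.6) and 47.7% of the nuclear protein-coding genes (median 0.778) were expressed. The highest of the 28 were Dppa5a, an RNA-binding protein of ESCs and germ cells, at 316, and the zinc finger protein gene Zfp42 (Rex1), at 203, an order that turned over reads with 1 alignment (199.9 and 229.9). Nanog was at 79.5, Tdgf1, a co-receptor for Nodal, at 81.8, Sox2 at 54.3, and Esrrb at 29.6. Nanog was above Tdgf1 over reads with 1 alignment (121.2 and 103.6). At the low end were Prdm14 at 1.89, Dppa3 at 1.46 and Lefty1 at 0.562, which was the 1 gene of the list below the threshold.

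The lists of other states and cell types had from 0 to 5 expressed genes each, to be read beside the 43.7% of all nuclear protein-coding genes. Of 8 genes of the primed epiblast, 2 were expressed (Otx2 at 4.13 and Foxd3 at 1.71), and no alignment was counted for Fgf5. Pou3f1 is annotated as 2 overlapping genes with 7 and 1 exonic bases of their own, so its 0 alignments say nothing of its level. No gene of 8 mesoderm markers was expressed, the highest being Tbx6 at 0.373. Of 7 ectoderm markers measured, 2 were expressed, and they were the tubulin Tubb3 at 16.2 and Nestin (Nes) at 1.15. Of the germ layer lists, that of endoderm had the most expressed genes, 5 of 8. They were Pdgfra at 5.82, Gata6 at 4.44, Gata4 at 2.16, Dab2 at 1.91 and Sox17 at 1.02. Foxa2 was at 0.663, Sox7 at 0.571, and Afp had no alignment. The list does not tell embryonic from extraembryonic endoderm. The median of the endoderm list was 1.47, above the 0.518 of all nuclear protein-coding genes, and over reads with 1 alignment 7 of its 8 genes were expressed. Of 7 trophectoderm markers, the keratins Krt8 and Krt18 were expressed (9.74 and 4.07), and Cdx2 was at 0.218. Zic2 joined the expressed genes of the primed epiblast over reads with 1 alignment (1.73), and the counts of the mesoderm, ectoderm and trophectoderm lists stayed at 0, 2 and 2.

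Markers of cells that could be carried along in the culture were near 0. Among 12 genes of fibroblast feeders the median level was 0.0375, and the collagen genes Col1a1, Col1a2 and Col3a1 had levels of 0.0556, 0.0111 and 0.0160. The smooth muscle actin Acta2 alone passed the threshold, at 3.78, and 0.667% of its 150 alignments belonged to reads with 1 alignment. Over those reads Acta2 was at 0.0479, and Pdgfrb alone was expressed (1.14). Of 10 genes of blood and liver, Cd68 alone was expressed (2.46), and Alb, Fabp1 and Lyz2 had no alignment. The median level of the 28 pluripotency genes was 94.0 times that of the 29 genes of the 3 germ layer lists and the trophectoderm list (18.5 against 0.197). Eomes, which is in 2 of those lists, was taken once. Of 6 genes of the 2-cell-like state measured, a rare state of ESC cultures that resembles the early embryo, Zscan4c, Zscan4f and Zscan4d were at 8.76, 8.51 and 6.31. These 3 are near-identical copies, and from 1.74% to 9.29% of the alignments of each belonged to reads with 1 alignment, so that a level cannot be given to one copy. Over those reads Zscan4d alone was expressed (1.11).

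**Figure D2:**
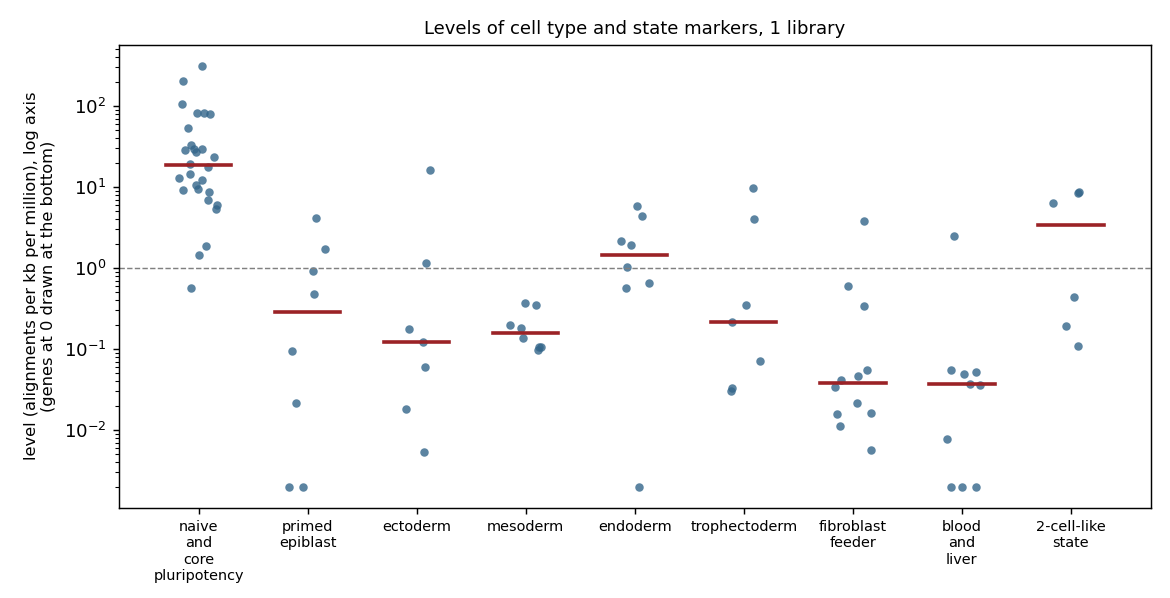
Level of each marker gene (dots, log axis, in alignments per kb per 1000000 counted for genes) by list, with the median of the list as a red line and the threshold of 1 dashed. The pluripotency genes have a median of 18.5 and the mesoderm genes one of 0.158, with no mesoderm gene above the threshold.

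In all, 26309 of 37310 annotated genes had at least 1 counted alignment and 12435 were expressed (13002 over reads with 1 alignment). A level of 10 was reached by 4221 genes, a level of 100 by 642 and a level of 1000 by 89. The 10 genes with the most alignments held 33.7% of those counted, and the top 100 held 53.1%. Protein-coding genes were spread far more evenly, since the top 10 nuclear protein-coding genes held 5.37% of their alignments and 889 genes were needed for 50% of them. The median level of the expressed nuclear protein-coding genes was 5.45, with quartiles of 2.57 and 12.2. Across autosomes this median, over all alignments, ran from 4.59 (chromosome 2) to 7.65 (chromosome 18), and it was 4.57 on chromosome X. On chromosome Y, 3 of 17 protein-coding genes were expressed, and they were Eif2s3y (7.37), Ddx3y (5.65) and Uty (3.19).

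Among nuclear protein-coding genes, those of replication-dependent histones were among the highest. Of 61 such genes, 60 had exonic bases of their own, 57 were expressed and 56 reached a level of 10, with a median of 556. Of all 22367 nuclear protein-coding genes, 43.7% were expressed and 2991 reached a level of 10. The highest of the histone list was Hist1h4k on chromosome 13 at 2438 (2402 to 2475), followed by Hist1h4f at 2352 and Hist1h4h at 2036. Over reads with 1 alignment this order was reversed (256, 363 and 422). The histone H4 genes encode the same protein and share much of their sequence, and 5.53% of the 16956 alignments of Hist1h4k belonged to reads with 1 alignment. The linker histone gene Hist1h1a, whose 11663 alignments all belonged to reads with 1 alignment, had a level of 701 (688 to 713), and Hist4h4 and Hist1h1b, likewise at 100%, had 336 and 267. Of the 6 members with at least 90% of their alignments from such reads, 4 were above 100 and 2 were low, Hist1h2aa at 6.79 and Hist3h2a at 0.770. Over reads with 1 alignment the median of the list fell to 72.6, 55 genes were expressed and Hist1h1a was the highest, at 1333. Replication-independent histone genes were lower as a group, with a median of 8.91 over 9 genes (13.02 over reads with 1 alignment), led by H2afz at 175 and H3f3b at 145. H3f3b was at 145 and H2afz at 13.02 over reads with 1 alignment, and all 9 were expressed, against 8 over all alignments.

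The highest other mRNAs belonged to translation, protein folding and the cytoskeleton. Eef1a1, the elongation factor that delivers aminoacyl-tRNA to the ribosome, was at 2450.3 (2437 to 2464), with 22.2% of its alignments from reads with 1 alignment. The chaperone Hspa8 was at 1217, with 2.38%, and the chaperone Hsp90ab1 at 779, with 86.9%. Over those reads Hsp90ab1 was the highest of the 3, at 1287, with Eef1a1 at 1033 and Hspa8 at 55.1. The 80 protein-coding genes of ribosomal proteins had a median level of 90.1, held 1.37% of the counted alignments, and 79 of them were expressed. All 18 housekeeping genes of the list were expressed (median 306, and 55.2 over reads with 1 alignment). Both counts stand beside the 43.7% of all nuclear protein-coding genes, whose median was 0.518. Gapdh, often used as a reference gene, was at 13.5, and 31.7% of its 679 alignments belonged to reads with 1 alignment. No read name had more than 10 alignments, and how reads with more places were treated is not given in the sources used here.

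Over all alignments, the kind of RNA that took the most after mRNA was misc_RNA, a class of GENCODE that holds small structured RNAs. With reads split and over reads with 1 alignment, mitochondrial rRNA came second instead, with 21.8% and 27.1%. Protein-coding genes held 46.0% of the counted alignments, misc_RNA 21.2%, mitochondrial rRNA 15.0%, snRNA 7.30%, pseudogenes 6.73% and snoRNA 2.81%. The share of protein-coding genes rose to 57.3% with reads split and to 65.7% over reads with 1 alignment, where misc_RNA was at 2.82% and snRNA at 0.587%. The 12435 expressed genes included 9783 of the 22380 protein-coding genes, 1603 of 5209 pseudogenes, 303 of 1552 snoRNA genes, 203 of 1273 lincRNA genes and 125 of 1423 snRNA genes. Over reads with 1 alignment these numbers were 10665, 991, 291, 314 and 146 in the same order. Of the alignments in pseudogenes, 12.2% belonged to such reads, over which the share of pseudogenes was 1.57%. Few alignments lay in annotated nuclear rRNA genes, as 332 such genes, 129 of them 5S rRNA, had 52 together. This count does not measure the rRNA left in the library. It leaves out AY036118, annotated as a pseudogene, and the stretch next to it on chromosome 17, described below, with 199978 reads with 1 alignment.

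The 4 genes of misc_RNA with the most alignments, beside copies of 7SK, carried the sequence of 7SL RNA. They are named by clones in the annotation and were recognised by their sequence (AC099934.1, AC157822.1, AC156953.1 and CT025673.1), and their first 30 bases on mm9 are shown, with bases that differ from AC099934.1 in capitals.
AC099934.1, chr12:70260282-70260311, plus strand: gccgggcgcggtggcgcacgcctgtagtcc
AC157822.1, chr12:70462439-70462468, minus strand: gccgggcgcggtggcgcacgcctgtagtcc
AC156953.1, chr6:69466333-69466362, plus strand: gccgggcAcggtggcgcaTgcctgtagtcc
CT025673.1, chr9:88448074-88448103, plus strand: gccgggcgcggtggcgcacgcctgtagtcc
AC156953.1 differed at 2 of the 30 bases and the others at 0. Over their whole length, 100% of the words of 50 bases in AC157822.1, 53.2% of those in AC156953.1 and 55 of the 250 in CT025673.1 also occurred in AC099934.1.

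These copies held 1122416, 1119145, 597328 and 254109 alignments, or 13.9% of those counted. Their levels were 169570, 169076, 95042 and 38133 in the same order, and the first 3 were the highest among nuclear genes with at least 200 exonic bases of their own and 100 alignments. Of their alignments, 0.00401% belonged to reads with 1 alignment, and with reads split the 4 genes held 7.26% of the counted reads. How much RNA came from each copy cannot be told from these alignments. On the strand of the gene lay 52.3% and 52.2% of the alignments of AC099934.1 and AC157822.1, 62.9% of those of AC156953.1 and 99.7% of those of CT025673.1. A further misc_RNA gene named by its clone, AC149599.1 on chromosome 18, shared 6.28% of its words with AC099934.1 and had a level of 9670.02, with 98.8% of its alignments on the strand of the gene.

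Other structured RNAs were abundant as well. The 331 genes named 7SK held 1186065 alignments (5.32%, 2.49% with reads split and 0.782% over reads with 1 alignment). Of these genes 27 were expressed, beside 52 of all 487 misc_RNA genes. The copy on chromosome 9 from 78023110 to 78023440 had the most, 370532, of which 42.5% were on the strand of the gene and 24.2% belonged to reads with 1 alignment, against 0.00581% and 0.000356% at the next copies, on chromosomes 2 and 15. RNase P RNA, which cuts the 5′ leader from tRNA precursors, was counted for AC027184.1 on chromosome 14, with 153414 alignments and a level of 21579, and for RNaseP_nuc on chromosome 8, with 66511 alignments and a level of 10291. In these, 84.8% and 70.5% of the alignments belonged to reads with 1 alignment, and 38.9% and 83.2% were on the strand of the gene. RNase MRP RNA, which takes part in the processing of rRNA precursors, had 54760 alignments, each from a read with 1 alignment, and a level of 16715, and 12% of them were on the strand of the gene. Vault RNA was at 401 and telomerase RNA, the template of telomere repeats, at 74.5.

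U2, which pairs with the branch point of introns, was the most abundant snRNA, with 1407707 alignments over 54 genes (6.32% of those counted, 1.71% with reads split). The 51 genes named U2 held 953802 of them, and the others are named by clone. U1, which pairs with 5′ splice sites, had 125148 alignments over 206 genes, and U4 had 82433 over 43. U5 had 5953 and U6, although annotated 936 times, had 401. Although U2, U4, U5 and U6 act in the same complex, their numbers of alignments lay far apart. At the 5 genes named U2 with the most alignments, 10.4% to 10.6% of the alignments were on the strand of the gene, against 49.4% in the library. AC120136.2 and AC120136.1, named by clone, had more alignments each, with 9.61% and 9.66% on the strand of the gene. At U3, the snoRNA that guides early cleavages of the pre-rRNA, 47 genes held 533381 alignments. The 4 copies on chromosome 11 have identical sequence and had levels from 25410.5 to 25506 with 33.0% to 33.1% of the alignments on the strand of the gene, and the copy on chromosome 10, with 97.7% of its alignments from reads with 1 alignment, had a level of 6142.

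Long noncoding RNAs made up a small share, 0.285% for lincRNA and 0.767% for processed_transcript. Malat1, a nuclear RNA of speckles, had a level of 541 (537 to 545) with 99.1% of its 79047 alignments from reads with 1 alignment. Of 20 long noncoding RNAs of the list that the annotation holds under these names, 17 were expressed, beside 203 of all 1273 lincRNA genes and 199 of all 2572 processed_transcript genes. Over reads with 1 alignment 16 of the 20 were expressed, beside 314 lincRNA and 322 processed_transcript genes. Of the list, Snhg11 (1.14) and 2900097C17Rik (11.5) are annotated as protein-coding. Of the 87 alignments of 2900097C17Rik, 0 belonged to reads with 1 alignment. Among host genes of snoRNAs, Snhg1 was at 44.9, Gas5 at 37.1 and Snhg5 at 29.9. From the imprinted Dlk1-Dio3 region, Rian was at 34.5, Mirg at 12.2 and Meg3 at 1.77. Neat1, the scaffold of paraspeckles, was at 2.43, Xist, which silences the inactive X chromosome, at 1.98, and its antisense RNA Tsix at 2.64. Tsix spans all of Xist on the opposite strand. Bases exonic in both were not counted, but with no strand in the data, reads of unspliced Tsix cannot be told from those of Xist. The long noncoding gene with the highest level was Gm15500, at 749.6, but 3.51% of its 17023 alignments belonged to reads with 1 alignment, over which its level was 50.1 and that of Malat1 1020.

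The mitochondrial alignments were mostly rRNA. The large subunit rRNA mt-Rnr2 (mitochondrial genome, 1094 to 2675) had 3098621 alignments and a level of 87885, and the small subunit rRNA mt-Rnr1 (70 to 1024) had 233693 and a level of 10980. All 13 mitochondrial mRNAs were expressed, from mt-Nd6 at 81.4 to mt-Co3 at 3644, with mt-Co1 at 3322. No alignment of mt-Co3, mt-Co2, mt-Atp6, mt-Atp8, mt-Nd3 and mt-Nd4l belonged to a read with 1 alignment, while at mt-Nd1, mt-Cytb and mt-Nd6 nearly all did. Over those reads 7 of the 13 were expressed and mt-Co1 was at 2779. The 22 mitochondrial tRNAs were all expressed, with a median level of 54.3, and 15 were over reads with 1 alignment. In some of them the alignments lay mostly on 1 strand, with 98.5% of those of mt-Ts1 and 0.877% of those of mt-Ta on the strand of the gene. Ribo-Zero Gold is sold to remove mitochondrial as well as cytoplasmic rRNA, and the share of mitochondrial rRNA in this library was 15.0% of the counted alignments and 27.1% over reads with 1 alignment.

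The alignments followed exon borders closely, but not symmetrically. Around 4473 internal exons of at least 200 bases, in genes at a level of 10 or more, leftmost bases of reads with 1 alignment had a density of 39.7 per kb in the 20 intronic bases below the edge with the lower coordinate and 640 in the first 20 exonic bases. At the edge with the higher coordinate the density was 507 in the last 20 exonic bases and 32.3 in the next 20 intronic bases. Midpoints, in contrast, had a density of 548 in the first 20 intronic bases past the higher edge and 30.4 in the first 20 exonic bases past the lower edge. Reads across splice junctions would have this pattern if they were listed as the 50 bases from their leftmost base, which was not tested. An alignment that starts in the last 25 bases below the higher edge has its midpoint in the intron. Some alignments counted as intronic by their midpoint therefore start in an exon. Placed by the leftmost base, 71.8% of the alignments were exonic and 16.4% intronic.

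**Figure D3:**
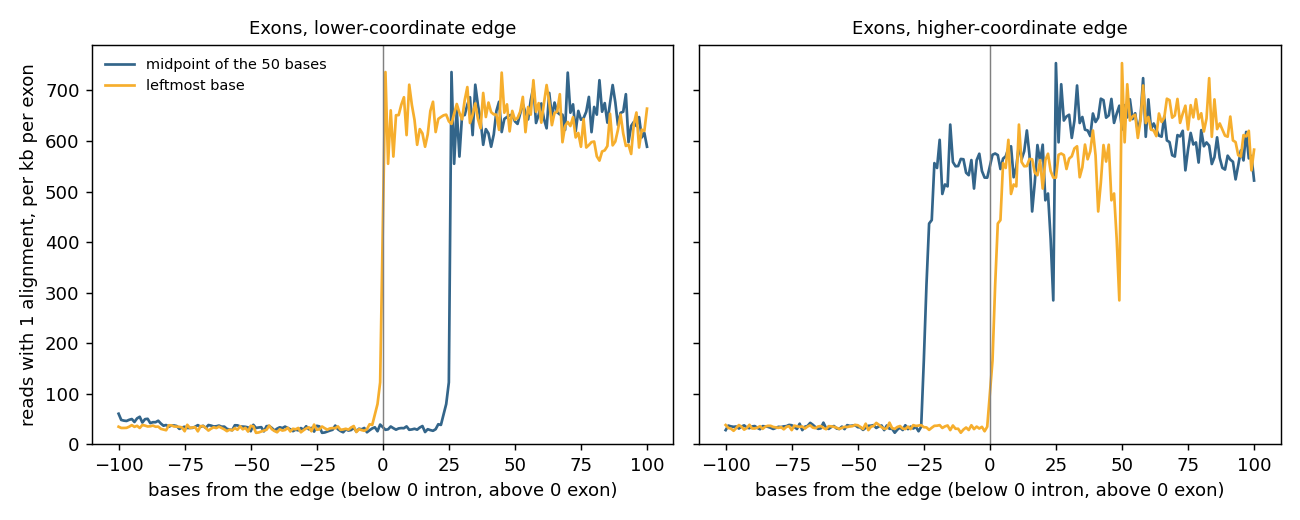
Density of reads with 1 alignment (per kb per exon) by distance from the edge of 4473 internal exons, for midpoints (blue) and leftmost bases (yellow). Leftmost bases change at the edge itself (39.7 to 640 at the lower edge), whereas midpoints change 25 bases higher up at the lower edge and 25 bases into the intron at the higher edge.

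Single splice sites of the 3 marker genes were examined in the same way, and are shown with 15 exonic and 15 intronic bases on mm9, on the strand of the gene, and with the 2 intronic bases next to the exon in capitals.
Pou5f1, 5′ splice site of exon 2, chr17:35646154-35646183: tgggcgttctctttgGTgggtctcccccag
Uhrf1, 5′ splice site of exon 3, chr17:56448988-56449017: ctggggctgtacaagGTgagggtccctgtg
Lin28a, 3′ splice site of exon 2, chr4:133574150-133574179: cctccctatctccAGgtggctgcgccaagg
In Pou5f1, 171 alignments had their leftmost base in the last 49 exonic bases before this site and 3 in the next 49 intronic bases. In Uhrf1 these numbers were 95 and 1. A read of 50 bases that starts in those exonic bases reaches past the site, and the intronic bases beyond it held few starts in both genes. In Lin28a, whose exon 2 has its higher coordinate at the 3′ splice site, the numbers were 4 and 1, too few to show a pattern.

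Introns held a low density of reads in most genes. Over 2498 protein-coding genes with a level of at least 10 and introns of at least 1000 bases, the median density of alignments in introns was 6.89% of that in exons, with 3.07% at the 10th and 15.8% at the 90th percentile. By leftmost base it was 4.77% (2.08% to 11.9%). Genes with introns under 10000 bases in all had a median of 5.96% by leftmost base, those from 10000 to 100000 bases 4.46%, and those above 3.71%. Protein-coding genes held 96.7% of the intronic alignments, and 1354 genes held 50% of them.

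A few genes departed from this. Taf1d, a TATA-binding protein-associated factor of RNA polymerase I whose introns hold snoRNA genes, had 16050 intronic alignments and an intronic density of 136% of the exonic one. Midpoints in annotated snoRNA genes were not counted as intronic. Jarid2, a Polycomb cofactor with long introns, had 9974 intronic alignments but 9.26% of the exonic density, and Exoc4 had 14918 and 7.21%. Slc22a27, a solute carrier gene with no exonic alignment, had 25654 intronic ones, of which 1568 belonged to reads with 1 alignment. At Slc22a29 39 of 12441 did. Rps12, also a host of snoRNAs, reached 200.1%. Its exonic level was low, at 10.2 from 117 alignments, against a median of 90.1 for ribosomal protein genes. Gt(ROSA)26Sor, the noncoding gene of the Rosa26 locus, reached 151%, with all 785 intronic alignments from reads with 1 alignment. The 10 genes with the highest ratio had from 104 to 362 exonic alignments each, apart from Gm6430 with 7982.

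Along protein-coding transcripts, coverage was lowest at the 5′ end, rose to a peak before the middle and fell again toward the 3′ end. Over 2382 genes and reads with 1 alignment, the median relative density was 0.315 in the first of 20 equal parts, 1.23 at the sixth, and 0.471 in the last. By region, at least 25 bases from exon ends, the density over 1219 genes was 244 per kb in 5′UTRs, 798 in coding sequence and 485 in 3′UTRs. Within genes the median density of the 5′UTR was 21.4% and that of the 3′UTR 70.0% of that of the coding sequence. In 259 of the genes the 3′UTR was above the coding sequence, and in 80 the 5′UTR was.

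**Figure D4:**
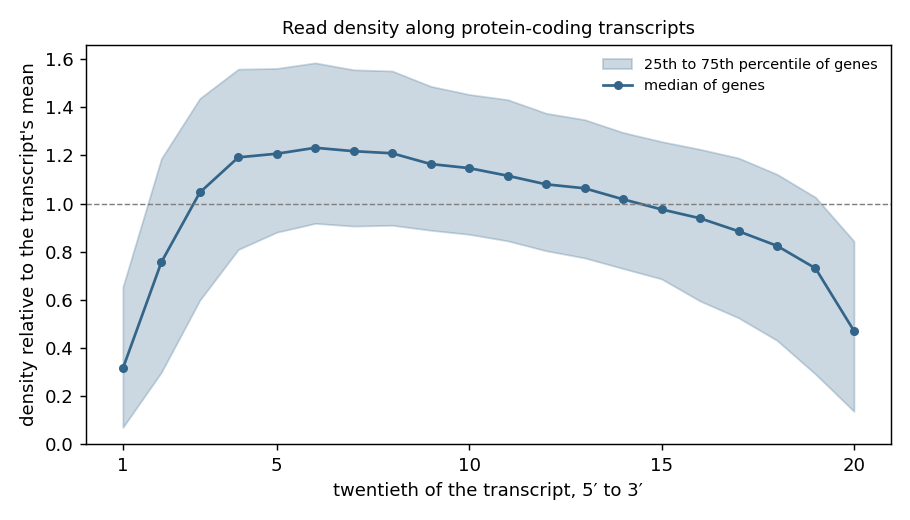
Density of reads with 1 alignment along 2382 protein-coding transcripts, in 20 equal parts from 5′ to 3′, relative to the mean of the transcript (line, median of genes; band, 25th to 75th percentile). The median is 0.315 in the first part, 1.23 in the sixth part and 0.471 in the last.

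LIF and BMP signalling help to keep mouse ESCs in self-renewal, whereas FGF4 acting through ERK promotes their exit from it. Of 24 genes of LIF, BMP, FGF, WNT and Nodal signalling, 23 were expressed, with a median of 8.87, against 43.7% and 0.518 for all nuclear protein-coding genes. On the LIF side the receptor subunits Lifr and Il6st were at 15.0 and 13.1, Jak1 at 3.77, Stat3 at 7.33 and the target and inhibitor Socs3 at 15.2. For BMP, the ligand Bmp4 was at 10.4, the receptor Bmpr1a at 21.9, Smad1 and Smad5 at 3.30 and 5.44, and the targets Id1, Id2 and Id3 at 15.2, 3.22 and 2.23. The ligand Fgf4 was at 17.9, its receptors Fgfr1 and Fgfr2 at 2.90 and 1.30, and the feedback inhibitors Dusp6, Spry4 and Spry2 at 20.9, 14.9 and 12.7. The WNT effector Ctnnb1 (beta-catenin) was the highest of the list at 90.1, the WNT target Axin2 was at 1.29, and Tcf7l1, a repressor of WNT targets, was below the threshold at 0.300. For Nodal, the ligand Nodal was at 21.3, the receptor Acvr2b at 2.76 and Smad2 at 12.1.

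Genes of chromatin modification differed widely within each list, and their counts can be read beside the 43.7% of all nuclear protein-coding genes that were expressed. Of 13 genes of DNA methylation and demethylation, 12 were expressed (median 10.1), and 11 over reads with 1 alignment, where the DNA glycosylase Tdg was at 0.580 rather than 5.60. The corepressor Trim28 was at 157 and its partner at imprinted sites Zfp57 at 51.3, above the maintenance enzyme Dnmt1 at 37.4. Of the de novo enzymes, Dnmt3b was at 8.43, Dnmt3a at 2.63 and their cofactor Dnmt3l at 10.1. The oxidases Tet2 and Tet1 were at 22.7 and 21.2, and Tet3 at 0.328 was the 1 gene below the threshold. Of 15 Polycomb genes, 14 were expressed (median 11.8), and all over reads with 1 alignment. The PRC2 subunits Eed and Suz12 were at 49.6 and 40.9 and the catalytic subunit Ezh2 at 5.56, and Mtf2 and Jarid2, which help PRC2 to its targets, at 47.5 and 26.5. For PRC1, Rnf2 was at 29.0, its paralog Ring1 at 1.01 and Cbx7 at 11.8.

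The machinery around Lin28a and let-7 was expressed in full, 13 of 13 genes with a median of 7.11, against 43.7% and 0.518 for all nuclear protein-coding genes. Trim71, itself a let-7 target, was at 26.9, above Lin28a (23.3) and well above its paralog Lin28b (5.28). The terminal uridylyltransferases Zcchc6 and Zcchc11 were at 7.11 and 4.66, and the nuclease Dis3l2, which degrades uridylated pre-let-7, at 3.58. Of the enzymes of microRNA processing, the exporter Xpo5 was at 22.2, Drosha at 8.79, Dgcr8 at 8.23 and Dicer1 at 8.02.

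Genes of glycolysis and of the cell cycle were expressed almost throughout, beside 43.7% of all nuclear protein-coding genes. All 17 genes of glycolysis were expressed (median 28.6, and 20.2 over reads with 1 alignment), led by pyruvate kinase (Pkm2) at 292, and the glucose transporters Slc2a3 and Slc2a1 were at 109 and 56.4. Hexokinase 2 (Hk2) was at 13.1 and Hk1 at 1.01. Threonine dehydrogenase (Tdh), on which mouse ESCs depend, was at 58.1, the highest of 11 genes of threonine and folate metabolism, all expressed. Of 24 cell cycle genes, 22 were expressed, with the replication licensing factor Mcm5 at 89.7, cyclins Ccnb1 at 65.0 and Ccna2 at 48.5, and Ccne1 at 23.3. The order of Ccnb1 and Ccna2 turned over reads with 1 alignment (38.6 and 91.3). The D-type cyclins were at 14.02 (Ccnd1), 8.75 (Ccnd3) and 0.338 (Ccnd2), the last of which, with the inhibitor gene Cdkn2a at 0.805, was below the threshold. Cdkn2a was above it over reads with 1 alignment, at 1.53.

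Of 20 imprinted genes, 12 were expressed, with a median of 1.77, against 43.7% and 0.518 for all nuclear protein-coding genes. The count was 13 over reads with 1 alignment. Impact was at 35.4, Grb10 at 15.9, Igf2r at 10.7 and Mest at 9.56. Igf2 and H19, which share an imprinting control region, were at 0.790 and 0.412, and Dlk1 at 0.0872. Which parental allele was read cannot be told from these alignments.

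The kinds of RNA were set beside the NT libraries of CIRS-seq, which were made from the same cell line after lysis in a detergent buffer and treatment with Proteinase K and which count RT stops rather than alignments. The values are given side by side without a test, since the protocols and the lists of transcripts differ and RNA-seq has 1 library. RT stops were found in 7942 and 7943 of 22380 protein-coding genes in NT replicates 1 and 2. For lincRNA they were found in 347 of 1273 genes in each. A stop in several genes could be counted for each of them, whereas alignments in exons of several genes were left out. An NT share is therefore not a share of reads. Protein-coding genes held 63.9% and 70.4% of the RT stops in NT replicates 1 and 2, against 46.0% of the alignments (57.3% with reads split). Mitochondrial rRNA held 0.0469% and 0.0700% in NT and 15.0% (21.8%) in RNA-seq. snRNA held 16.4% and 13.3% in NT and 7.30% (2.30%) in RNA-seq, and misc_RNA held 3.35% and 2.19% in NT and 21.2% (11.8%) in RNA-seq. The lincRNA class was at 3.46% and 4.25% in NT and 0.285% (0.357%) in RNA-seq. Over all alignments the gap between RNA-seq and either NT replicate was larger than that between the NT replicates for each of these 5 kinds. Over reads with 1 alignment this did not hold for protein-coding genes (65.7%) and misc_RNA (2.82%), whose shares lay between those of the NT replicates. No matching restriction was applied to the RT stops. The rRNA class, with 3.42% and 0.800% in NT and 0.000233% in RNA-seq, differed less between RNA-seq and NT replicate 2 than between the NT replicates. Its RNA-seq share leaves out alignments at AY036118 and outside genes.

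**Figure D5:**
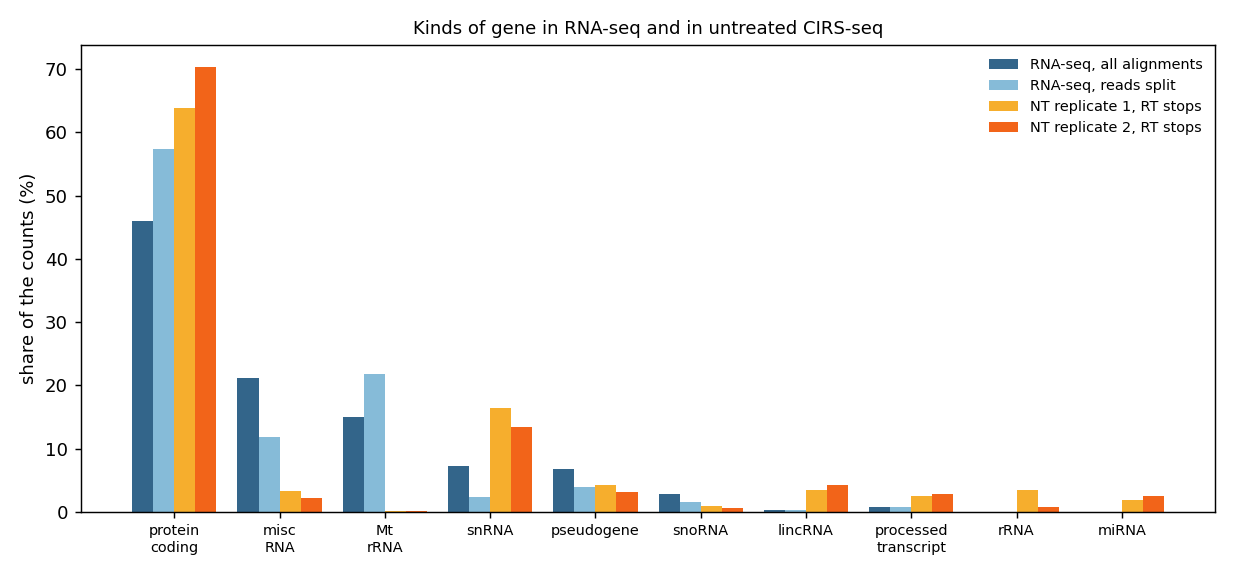
Share (%) of counts by kind of gene in the RNA-seq library, over all alignments and with reads split, and in NT replicates 1 and 2 of CIRS-seq, as RT stops. Mitochondrial rRNA has 15.0% of the alignments and less than 0.1% of the RT stops in each NT replicate, and snRNA has more of the RT stops (16.4% and 13.3%) than of the alignments (7.30%).

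Outside genes, the bin of 1 kb with the most reads with 1 alignment lay on chromosome 17. The run of neighbouring bins with at least 100 such reads each spanned 39979001 to 39985000. It held 199978 reads with 1 alignment, which were 14.4% of those outside genes and 1.07% of all reads with 1 alignment. The stretch lies next to AY036118 (chromosome 17, 39985048 to 39985772), annotated as a pseudogene, with a level of 846. In RefSeq, on the later assembly GRCm38.p6, the neighbour of AY036118 is Rn18s-rs5, a pseudogene related to 18S rRNA.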

How the data were processed

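Members and gene lists were chosen with earlier results of these data known. Per the submitters' processing notes, the authors used TopHat2 2.0.6 and Bowtie 1 for the mapping to mm9, and FastQC 0.10.1; the settings were not given in the sources used here. The deposited RNA-seq file lists alignments, with a score of 0 in each line, and alignments were counted from it. For NT, the deposited values are raw counts of RT stops per transcript position, which were summed with each genomic position once per gene (181331360 and 163073003 RT stops). A position that lies in several genes could thus be counted for each of them, and these sums are not numbers of reads. The DMS, CMCT and combined files were not used here.

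Exons, introns and kinds were taken from GENCODE vM1 on mm9. The programs used were scipy 1.17.1, pandas 2.3.3 and numpy 2.4.6 under Python 3.11.15, and matplotlib 3.10.9 for the figures. Intervals are 95% Wilson or exact Poisson and treat alignments as independent, although PCR copies carry no identifier. Genes without an exonic base of their own (527) have no level. On simulated alignments drawn inside the exons of a set of genes, the counting returned each gene's number. They held no splice junctions and no reads with several alignments, so this checked the bookkeeping alone. Beside the members of the lists, genes were named as follows: the 15 nuclear genes with the highest level (at least 100 alignments and 200 exonic bases), the 10 highest long noncoding genes, the 5 genes of each other kind with the most alignments, and the 10 genes each with the most intronic alignments and the highest intronic to exonic density (at least 100 of both). Nuclear protein-coding genes with the highest levels were added after the data were seen. Alternatives were other ways of placing or weighting alignments, repeated positions once, no mitochondrial genome, other thresholds, lengths and filters, and the more frequent strand doubled; splitting of reads, the leftmost base and most uses of read names that occur once were added after the data were seen.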

Additional observations from a re-analysis of the deposited data

Results flagged for a closer look

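Reads with 1 alignment were dense in 4 neighbouring bins of 1 kb on chromosome 17 that lie outside annotated genes and enter no comparison of genes. The bin from 39980001 held 68004 such reads, the bin from 39982001 held 61858, the bin from 39981001 held 50849 and the bin from 39983001 held 15138. The next densest bin outside genes, on chromosome 6 from 66825001, held 4029.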

How the results depend on the processing

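The shares depended on how alignments were placed and weighted. Against 70.0%, the exonic share was 71.1% where the midpoint and both ends gave the same place, 71.8% by leftmost base, 66.2% without the mitochondrial genome, 65.7% with reads split, 62.9% over read names that occur once and 46.1% with repeated positions counted once. In the same order, against 18.3%, the intronic share was 16.9%, 16.4%, 20.6%, 23.8%, 27.8% and 40.5%, and against 46.0%, the protein-coding share of counted alignments was 43.9%, 47.4%, 53.5%, 57.3%, 65.7% and 93.0%. The mitochondrial share (11.2%) was 15.0% with reads split, 17.4% over names that occur once and 0.156% with positions counted once. Counting positions once caps the count of a short sequence. It therefore lowers the share of the mitochondrial genome and of short RNAs however many reads they have. The 12435 expressed genes became 6757 at a threshold of 5. The other 10 alternatives gave from 12007 to 16931, within 1.5 times of it. The ratio of medians of pluripotency to germ layer and trophectoderm markers (94.0) ran from 66.1 to 95.1 over 4 alternatives. A gene with no alignment has a one-sided upper limit of 3 alignments, a level of 0.135 for 1 kb of exon, and the upper end of the two-sided Poisson interval is 0.166. No paired analysis was possible because RNA-seq has 1 library, whose label shares no replicate number with the CIRS-seq libraries.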
